A study of Mus musculus with 4 samples.

Results

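The genes described here are 9 transcription factors that steer the myeloid lineage from monocyte to macrophage and dendritic cell (DC), namely Spi1, Fli1, Cebpb, Klf4, Nr4a1, Maf, Nr1h3, Irf8 and Batf3. They were taken as a fixed list and matched by symbol, and all 9 were found among the 18596 genes that every library listed. Cells came from subcutaneous LLC tumors (Lewis lung carcinoma, a mouse lung cancer cell line) grown in C57/BL6N mice of 6 to 8 weeks. In the radiotherapy (RT) group, tumors of about 100 mm3 received 8 Gy on each of days 7 to 9 (24 Gy in total) and were taken 72 h later, and the libraries RT1, RT2 and RT3 held 1 tumor each. The radiation naive (NT) group was mock treated and was 1 library in which 3 tumors were pooled, so every comparison below shares this control, has no replicate of it and carries no p-value. Each library was read by single-cell RNA sequencing from the 3′ end, in which each captured transcript is counted once through its unique molecular identifier (UMI). The tables held 69667759 UMIs for NT, 78585759 for RT1, 108699844 for RT2 and 85660188 for RT3. Wherever 4 values follow each other below, they stand in the order NT, RT1, RT2, RT3, and where 3 values follow a value for NT, in the order of the RT libraries.

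Transcription factors of several families divide the work of myeloid differentiation. PU.1, the product of Spi1, is an ETS factor that opens enhancers in every branch of the lineage, and FLI1 is an ETS factor of blood and endothelial cells. C/EBPβ (Cebpb) acts in inflammatory and emergency myelopoiesis, KLF4 in monocyte differentiation, and Nur77 (Nr4a1) is an orphan nuclear receptor that is induced within minutes of many stimuli and is needed for non-classical monocytes. c-MAF (Maf) is a bZIP factor of macrophages, and LXRα (Nr1h3) is a nuclear receptor that senses oxysterols and drives cholesterol efflux. IRF8 is needed for monocytes and above all for conventional type 1 dendritic cells (cDC1), in which it works with BATF3.

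Of the 9 genes, 6 had promoter entries in RefSeq (GRCm38.p6), and the windows shown are the 250 bases before the annotated start. They are printed for the genes with an entry and a mean of at least 10 CPM (UMIs per 1000000 UMIs of the population in that library) whose levels in monocytes lay below NT in all RT libraries (Nr4a1, Cebpb and Klf4), and for Irf8, the gene that marks cDC1. Capitals in the first group mark TGACG or its complement CGTCA, the half-site of the cAMP response element, and capitals in Irf8 mark TTCNNNGAA, the gamma-activated site bound by STAT factors. The windows are chr15:101266596-101266845 (plus strand) for Nr4a1, chr2:167688665-167688914 (plus strand) for Cebpb, chr4:55532476-55532725 (minus strand) for Klf4 and chr8:120736108-120736357 (plus strand) for the upstream start of Irf8.
Nr4a1: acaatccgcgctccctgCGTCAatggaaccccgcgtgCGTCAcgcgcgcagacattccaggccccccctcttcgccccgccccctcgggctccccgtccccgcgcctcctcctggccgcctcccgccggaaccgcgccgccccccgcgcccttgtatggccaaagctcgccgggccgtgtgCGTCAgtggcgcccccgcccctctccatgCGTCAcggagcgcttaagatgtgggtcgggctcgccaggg
Cebpb: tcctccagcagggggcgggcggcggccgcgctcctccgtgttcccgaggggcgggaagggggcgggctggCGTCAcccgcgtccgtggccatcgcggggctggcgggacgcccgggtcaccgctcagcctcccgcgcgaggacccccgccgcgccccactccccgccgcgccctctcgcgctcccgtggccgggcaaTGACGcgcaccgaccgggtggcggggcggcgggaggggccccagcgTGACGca
Klf4: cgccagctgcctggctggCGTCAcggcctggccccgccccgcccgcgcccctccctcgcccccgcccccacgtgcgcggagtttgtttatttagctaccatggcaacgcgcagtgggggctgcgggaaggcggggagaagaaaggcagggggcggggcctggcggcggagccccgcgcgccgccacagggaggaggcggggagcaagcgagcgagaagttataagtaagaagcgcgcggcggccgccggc
Irf8: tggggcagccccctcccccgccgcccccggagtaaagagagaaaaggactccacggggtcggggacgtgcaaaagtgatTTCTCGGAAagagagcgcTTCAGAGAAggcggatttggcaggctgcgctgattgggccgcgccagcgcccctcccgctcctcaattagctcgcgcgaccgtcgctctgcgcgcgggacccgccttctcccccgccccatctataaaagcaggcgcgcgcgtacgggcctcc
The Nr4a1 window held 4 half-sites, that of Cebpb 3 and that of Klf4 1, whereas 17.77% of 32851 promoter windows held at least 1 when both strands were searched. The Irf8 window shown held 2 gamma-activated motifs, a motif present in 7.02% of windows, and the window of its second start held none. The windows of Nr1h3 held neither motif and that of Batf3 held 1 gamma-activated motif. A match is a run of letters and was not read as a binding site.

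Cells were grouped without using the 9 genes, and the groups were named from marker genes. Monocyte-like cells numbered 460, 1612, 1825 and 1638. They fell into 3 sub-clusters, led by Chil3 with Ly6c2 (Chil3 monocytes), by Ppbp and Cxcl3 with Thbs1 (Thbs1 monocytes) and by interferon-induced genes such as Ifit3 (interferon monocytes). Macrophage-like cells numbered 762, 2847, 2747 and 1698 in 6 sub-clusters, among them Lyve1 macrophages (145, 852, 758 and 390 cells), which carried Lyve1, Folr2 and Ccl8, and Cxcl9, Mmp12 and Crip1 macrophages, named for a gene among their leading ones. The sub-clusters called shallow (few UMIs per cell) and cycling were also macrophage-like. Dendritic cells were few, with 21, 24, 46 and 23 cells of cDC1 type, 46, 63, 111 and 65 of cDC2 type and 16, 21, 29 and 29 mature DC. The dendritic sub-clusters of 194 and 147 cells that kept no type name were pooled as a further group, which makes 13 populations. This group was named for Ear2 and Mgl2, which were among the leading genes of both sub-clusters.

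The labels of the cells were checked against their defining markers. In monocytes, the 10 monocyte markers summed to 12143, 14018, 11299 and 19155 CPM, against 2075, 1847, 1867 and 3140 CPM in macrophages. In cDC1, at least 8 of the 9 cDC1 markers were detected in every library, with Xcr1 at 103, 52.8, 77.9 and 16.6 CPM. Between 175 and 274 cell barcodes were shared by each pair of libraries. RT2 stood apart, since it held the most UMIs in total (the median kept cell held more in NT, with 5709 against 5199 UMIs), listed 18605 genes by symbol alone against 32285 in the other tables, and reached only 11.95% mitochondrial UMIs, where the others reached over 90%. Values are therefore given for every library, and without RT2 where that changes a statement.

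Spi1 was the gene most restricted to myeloid cells in each library. It reached at most 1.79 CPM in tumor cells, and 92.9%, 88.5%, 88.0% and 88.0% of its UMIs came from the 13 myeloid populations. Cebpb was the least restricted of the abundant genes, with 22.6% to 49.8% of its UMIs in these populations, and tumor cells held it at 254, 234, 309 and 269 CPM. Of the sparse genes, Nr1h3 had 29.3% to 54.8% and Batf3 14.1% to 45.2% of its UMIs there. Levels of different genes were not compared, because a 3′ count depends on the transcript.

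**Figure D1:**
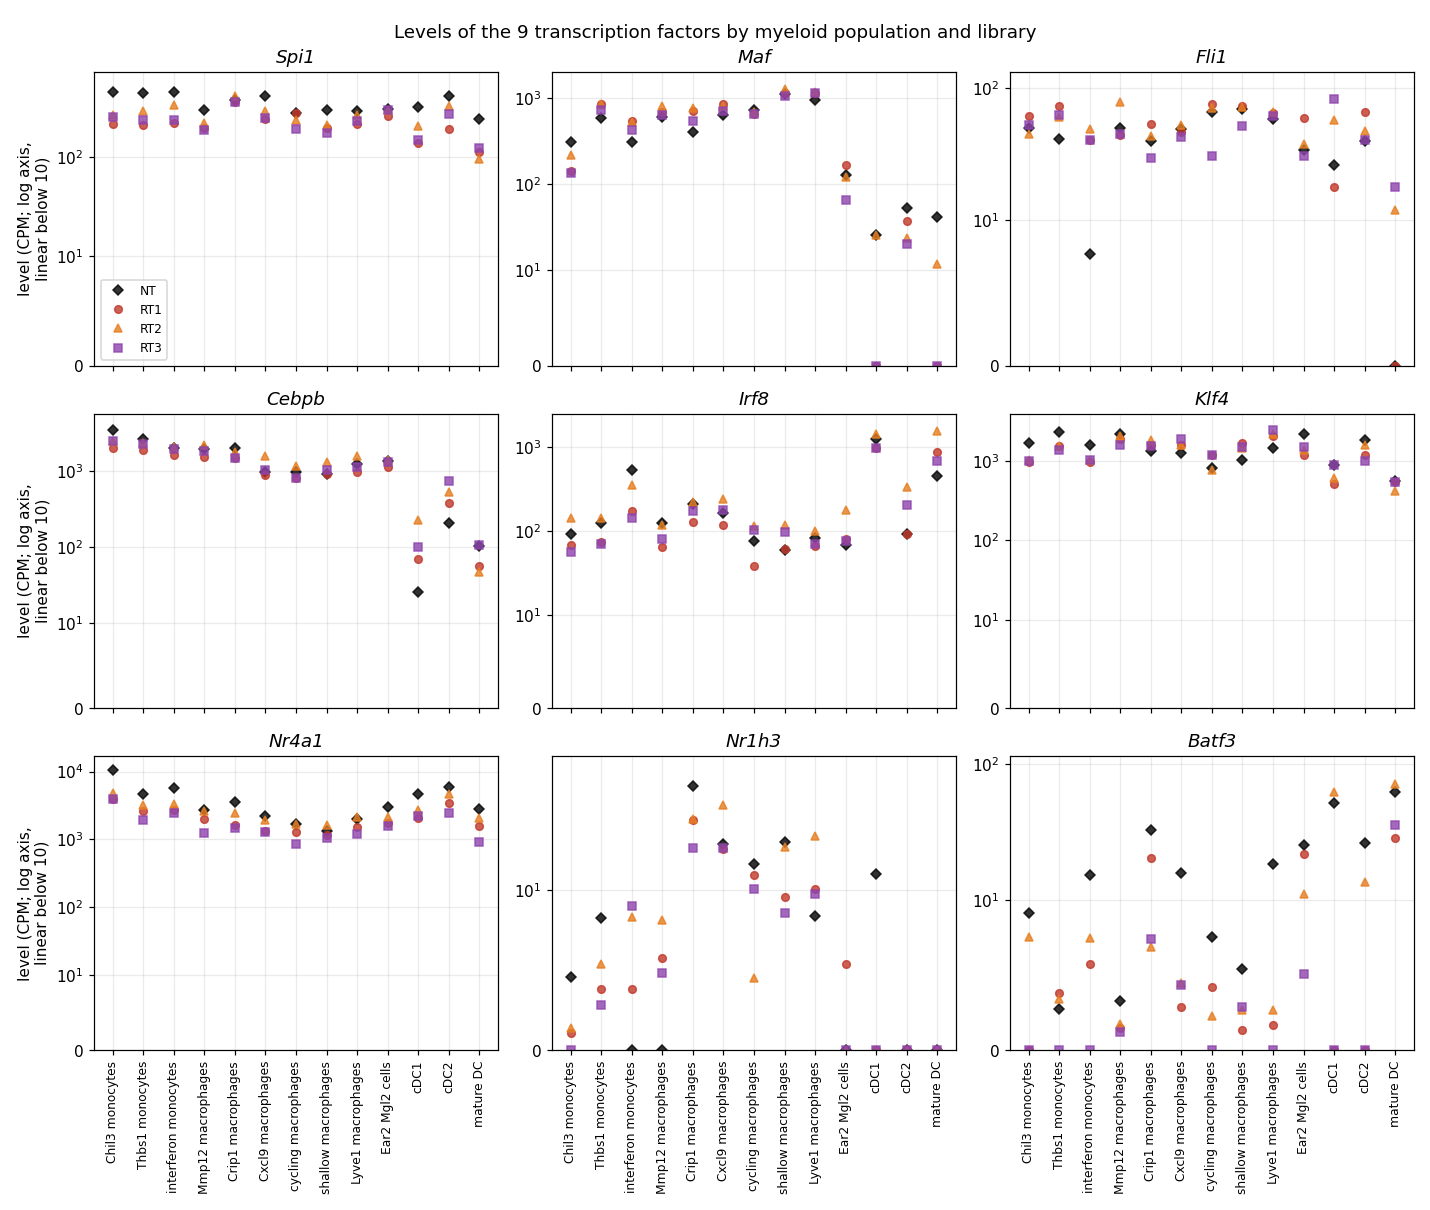
Levels of the 9 transcription factors in CPM (vertical axis, logarithmic above 10 CPM and linear below) in each myeloid population (horizontal axis), with 1 point per library of NT, RT1, RT2 and RT3. Irf8 peaked in cDC1 and mature DC, Maf was lowest in dendritic cells, and the NT points of Spi1 and Nr4a1 lay above the RT points in most populations.

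Spi1 was lower after radiotherapy in monocytes and in macrophages. Its level in monocytes was 453 CPM in NT (324 UMIs) and 216, 299 and 246 CPM after radiotherapy. The NT value lay above all RT values, and the mean log2 ratio of RT over NT, on the log2(CPM + 1) scale, was -0.85 ± 0.24 (SD over 3 RT libraries). Under the alternative ways of processing that were run, this ratio lay between -0.97 and -0.44. In macrophages the levels were 341, 228, 278 and 238 CPM, again with NT highest, and the ratio was -0.46 ± 0.15. The exact 95% intervals of the 3 ratios, which cover counting error only, ran from -1.27 to -0.42 in monocytes and from -0.70 to -0.19 in macrophages and did not reach 0.

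The difference was found in most of the 13 populations. In 12 of 13 populations every RT library lay below NT, although in cycling macrophages RT1 was level with NT (279 CPM each), and in the Ear2 Mgl2 group the count was lost under other scalings of the libraries. Over the 13 populations, between 44.8% and 71.6% of all genes tested had all RT libraries to 1 side of NT, so this position alone is common. Crip1 macrophages were the exception, with 378 CPM in NT and 360, 415 and 363 CPM after radiotherapy. Neutrophils, which are not among the 13 populations, went the other way. Their log2 ratio was 1.48, and 1.27 to 1.62 with single RT libraries left out. This value rests on only 21 neutrophils in NT, with 41186 UMIs of all genes together. In interferon monocytes Spi1 stood at 459, 223, 336 and 237 CPM, and in cDC2 at 419, 196, 333 and 272 CPM. RT2 was the highest RT library in monocytes and macrophages, and without it the ratios were -0.97 and -0.55.

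The populations overlapped in their levels of Spi1. Mean levels ran from 379 CPM in Crip1 macrophages to 145 CPM in mature DC, and neighbours in this order overlapped over the 4 libraries. Spi1 differed little between macrophages and monocytes (log2 ratio -0.12 ± 0.21, macrophages above in 1 of 4 libraries). It was lower in cDC1 than in cDC2 in every library, by a log2 ratio of -0.60 ± 0.22.

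The share of cells with a Spi1 UMI showed the same order when each cell was thinned to 1500 UMIs. It was 51.1% in NT monocytes (exact Clopper-Pearson 95% interval 43.6 to 58.6, 182 cells) and 26.9%, 35.6% and 30.0% after radiotherapy. Among macrophages it was 41.2%, 28.6%, 33.2% and 30.6%. Tumor cells, which should lack the gene, gave 0.07%, 0.07%, 0.27% and 0.02%, so the myeloid shares were far above background. Without thinning, the monocyte shares were 45.4%, 29.4%, 48.7% and 28.4%, where the median monocyte held 1223 UMIs in NT and 2375 in RT2. Thinning left out 278 of 460 NT monocytes and 776, 456 and 1019 RT monocytes.

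**Figure D2:**
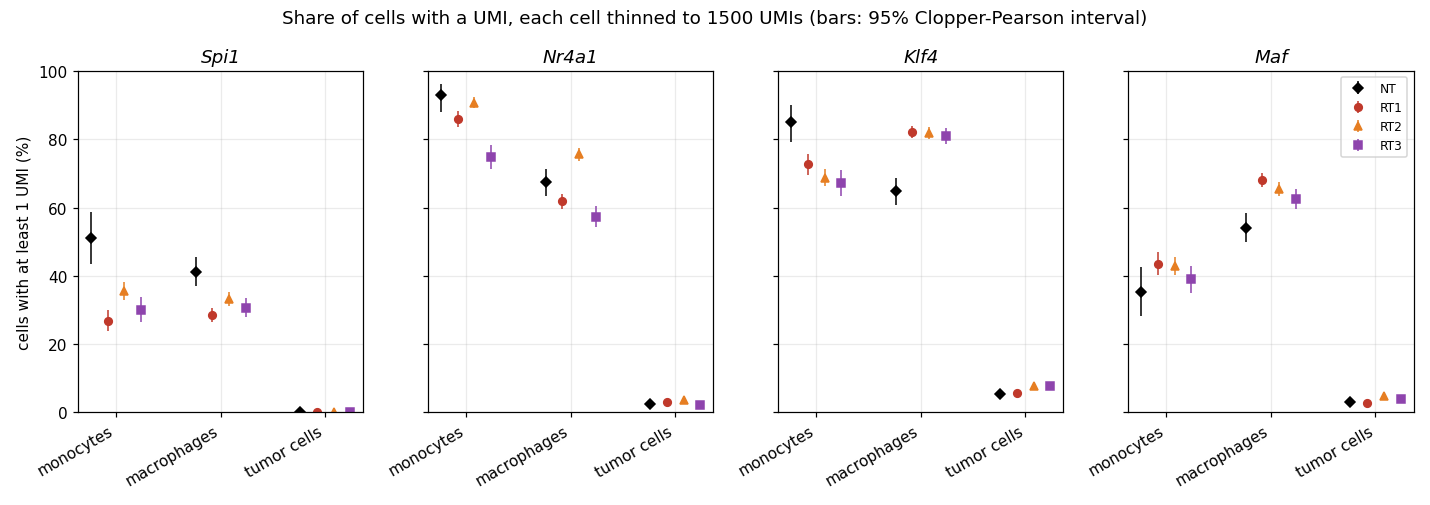
Percentage of cells with at least 1 UMI of Spi1, Nr4a1, Klf4 or Maf (vertical axis) after thinning to 1500 UMIs per cell. Monocytes, macrophages and tumor cells stand on the horizontal axis, with 1 point per library and exact 95% binomial intervals. For Spi1 the NT share was the highest in both myeloid classes (51.1% and 41.2%), and tumor cells stayed under 0.3%.

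Fli1, the other ETS member, did not follow Spi1. In monocytes it was at 37.7 CPM in NT (27 UMIs) and 63.1, 52.3 and 54.8 CPM after radiotherapy. All RT libraries lay above NT (log2 ratio 0.57 ± 0.14), yet the counting intervals of RT2 and RT3 included 0. In macrophages the levels of 54.0, 56.9, 62.0 and 48.0 CPM overlapped. In interferon monocytes NT held 1 UMI, against 21, 59 and 18 after radiotherapy, a count too low for a ratio. Across the tumor, Fli1 was highest in endothelial cells (231, 162, 171 and 113 CPM), above every myeloid population in each library.

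Nr4a1 showed the largest difference in monocytes among the members of at least 10 CPM. Its level in monocytes was 6664 CPM in NT (4770 UMIs) and 3068, 3768 and 2780 CPM in the RT libraries. NT was well above all RT libraries, the log2 ratio was -1.07 ± 0.22, and RT2 alone fell short of a 2-fold difference (-0.82, counting interval -0.87 to -0.78). In Chil3 monocytes the levels were 10535, 3954, 4892 and 3946 CPM (-1.31 ± 0.18), more than 2-fold below NT in each RT library. No other member of at least 10 CPM passed 2-fold there, where 1.85% of 6643 genes were 2-fold lower in every RT library.

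Macrophages held less Nr4a1 and a smaller difference. The levels were 2219, 1507, 2112 and 1240 CPM, and the log2 ratio was -0.49 ± 0.39 (-0.31 without RT3). RT2 lay only just below NT, and above it under TMM scaling (trimmed mean of M-values) or without integration of the libraries. Nr4a1 was lower in macrophages than in monocytes in every library (log2 ratio -1.15 ± 0.32). Chil3 monocytes were the highest population on average (5832 CPM) and shallow macrophages the lowest (1300 CPM), and cDC2 exceeded macrophages in 4 of 4 libraries.

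Nr4a1 lay below NT in all RT libraries in 10 of 13 populations, and on both sides in cycling, shallow and Lyve1 macrophages. Mmp12 macrophages left the 10 under TMM scaling, and cycling macrophages joined them under both other scalings. The dendritic cells were among the 10, with cDC1 at 4685, 2094, 2756 and 2241 CPM and cDC2 at 5846, 3423, 4658 and 2417 CPM. In both, NT was highest, and in cDC2 the log2 ratio was -0.79 ± 0.47. Lymphocytes showed the same order, with 1454 CPM in NT and 793, 975 and 671 CPM after radiotherapy, whereas in fibroblasts NT was the lowest of the libraries (1116, 1872, 1808 and 1266 CPM).

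Nr4a1 is needed for non-classical monocytes, and the summed markers of these cells were read beside it. In Chil3 monocytes the 8 non-classical markers summed to 254 CPM in NT and 75.0, 77.3 and 68.5 CPM after radiotherapy. The NT sum rests on few counts, since NT held 165 Chil3 monocytes with 220132 UMIs of all genes. Spn was the most abundant of these markers in NT (90.9 CPM), Adgre4 stood at 54.5, 16.6, 15.1 and 10.3 CPM, and Cd300e was at 0 in every RT library. Pglyrp1 and Fabp4 were at 0 in NT and so could not be lower after radiotherapy. When all cells with a UMI of any of these markers were left out of the monocytes, 5168 of 5535 cells remained and the log2 ratio of Nr4a1 was -1.05. In Chil3 monocytes the same step left 1729 of 1945 cells and a ratio of -1.30 ± 0.19. Cells in which no marker UMI was captured stayed in, so the part of non-classical monocytes in the Nr4a1 values was not settled by these values.

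Klf4 differed in opposite directions in the 2 main classes. In monocytes it was at 1982 CPM in NT (1419 UMIs) and 1242, 1250 and 1173 CPM after radiotherapy. The RT libraries were close to each other and all below NT (log2 ratio -0.70 ± 0.05). In macrophages it was at 1329 CPM in NT (3473 UMIs) and 1814, 1855 and 1912 CPM, so that all RT libraries were above NT (0.48 ± 0.04). Leaving out any RT library kept both directions.

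Klf4 was also split among the sub-clusters. All RT libraries lay below NT in each of the 3 monocyte sub-clusters, with log2 ratios of -0.75 ± 0.04 in Chil3, -0.64 ± 0.10 in Thbs1 and -0.63 ± 0.05 in interferon monocytes. Lyve1 macrophages had the largest difference upwards, with 1432, 2038, 2190 and 2418 CPM (0.63 ± 0.12), followed by shallow macrophages (0.58 ± 0.11) and by Cxcl9 macrophages with 1263, 1588, 1597 and 1875 CPM. Mmp12 macrophages went with the monocytes, at 2183, 1887, 2067 and 1563 CPM, as did cDC2 at 1848, 1184, 1578 and 987 CPM. When each library was given the same mix of sub-clusters, the macrophage ratio was 0.37. Fibroblasts held Klf4 at 470, 1339, 1696 and 1621 CPM, and the 7 fibroblast markers summed to 32.9, 81.9, 58.2 and 106 CPM in macrophages (at least 6 detected in each library, Col3a1 the most abundant), and their part in the Klf4 values was not tested.

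The share of cells with a Klf4 UMI followed the levels after thinning. It was then 85.2% of NT monocytes and 72.7%, 68.7% and 67.2% of RT monocytes, and 64.8% of NT macrophages and 82.2%, 81.8% and 81.0% of RT macrophages. In tumor cells it was 5.37%, 5.85%, 7.83% and 7.79%, well below both classes. Unthinned, the macrophage shares were 74.8%, 83.1%, 86.1% and 75.9%, and the monocyte shares were 75.4%, 68.9%, 75.5% and 63.3%, so that RT2 monocytes were no longer below NT.

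**Figure D3:**
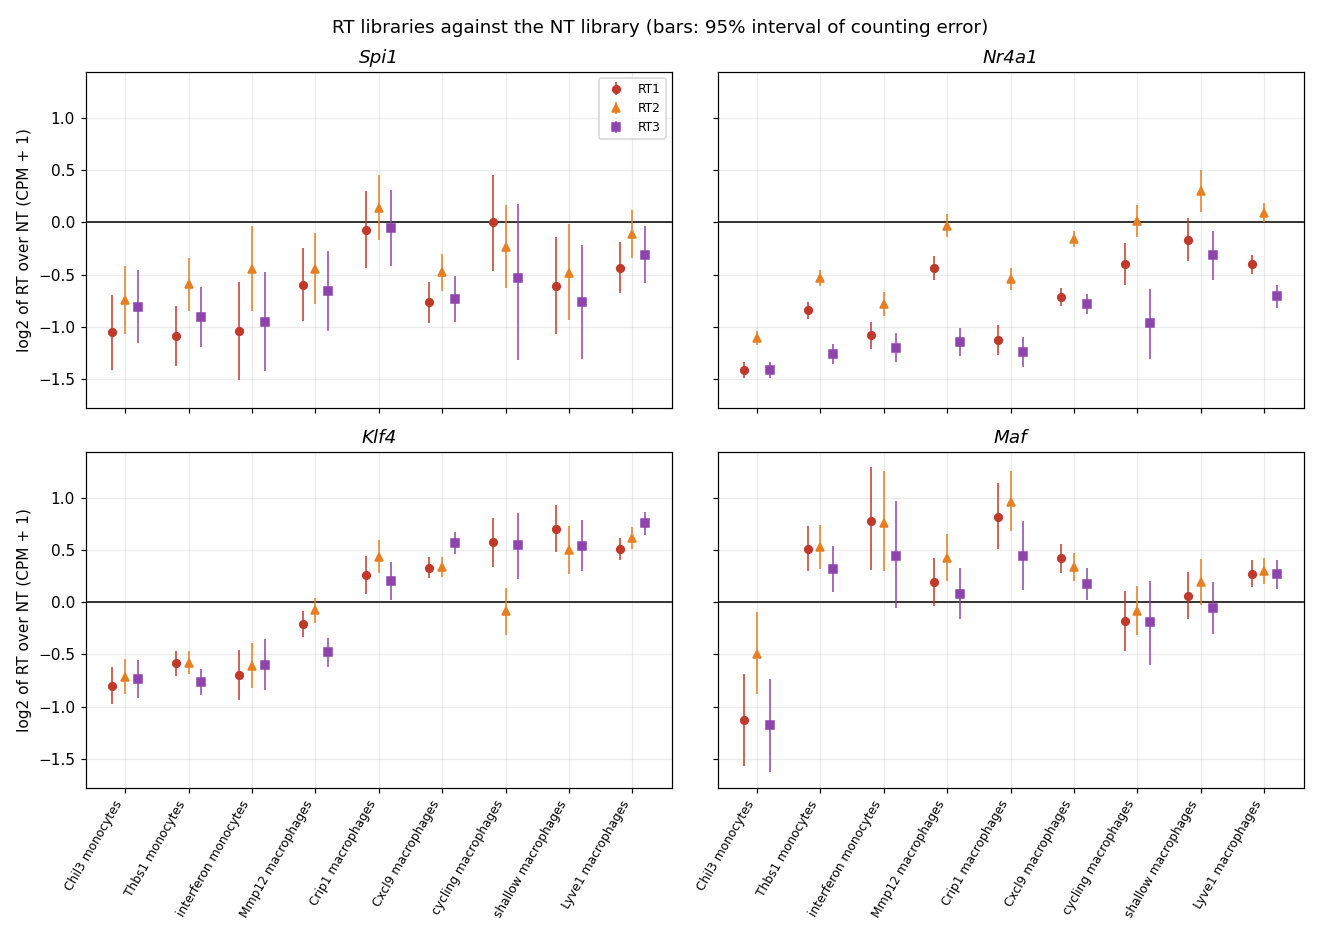
Log2 ratio of each RT library over NT, on the log2(CPM + 1) scale, for Spi1, Nr4a1, Klf4 and Maf in the 9 monocyte and macrophage sub-clusters, with exact 95% intervals for counting error. Spi1 and Nr4a1 lay mostly below 0, Klf4 below 0 in the monocyte sub-clusters and above it in Lyve1 macrophages, and Maf was lowest in Chil3 monocytes (-0.93).

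Cebpb was a gene of monocytes more than of macrophages. Its level in monocytes was 2788, 1876, 2320 and 2284 CPM, and in macrophages 1265, 1046, 1649 and 1248 CPM. Monocytes were above macrophages in every library, and the ranges did not overlap (log2 ratio of macrophages over monocytes -0.84 ± 0.27). Sub-clusters of the classes did overlap, since Mmp12 (mean 1863 CPM) and Crip1 macrophages (1689 CPM) overlapped interferon monocytes (1915 CPM). Neutrophils held it at 2355, 2059, 2652 and 2039 CPM, a level like that of monocytes. Dendritic cells held the least, with 25.8 to 228 CPM in cDC1 and 47.7 to 107 CPM in mature DC.

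After radiotherapy Cebpb was modestly lower in monocytes (-0.37 ± 0.17), with NT highest. In Chil3 monocytes it was at 3507, 2009, 2464 and 2485 CPM (-0.60 ± 0.17). Macrophages gave no common direction, since RT1 was below NT, RT2 above it and RT3 level with it (ratio -0.15 without RT2). In cDC2 the order was the opposite of that in monocytes, with 210, 382, 535 and 735 CPM (1.34 ± 0.47), a value that rests on 16 UMIs in NT. Beside these values, the 6 neutrophil markers summed to 36.3, 106, 210 and 115 CPM in monocytes, with S100a8, S100a9 and Retnlg at 0 in NT and Csf3r their most abundant gene there (33.5 CPM), and their part in the Cebpb values was not tested.

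Maf was higher in macrophages than in monocytes of each library. In monocytes it was at 455, 556, 574 and 460 CPM, and in macrophages at 729, 964, 966 and 851 CPM. The 2 ranges did not overlap, and the log2 ratio of macrophages over monocytes was 0.78 ± 0.09 (4 of 4 libraries). Chil3 monocytes were the lowest of the monocyte and macrophage sub-clusters (309, 141, 219 and 136 CPM), and Lyve1 macrophages held 957 to 1177 CPM, above Thbs1 monocytes in every library. The sub-clusters did not divide cleanly by class. Shallow macrophages had the highest mean (1152 CPM). Thbs1 monocytes (mean 759 CPM) overlapped Cxcl9 (753 CPM), cycling (687 CPM), Mmp12 (687 CPM) and Crip1 macrophages (609 CPM). cDC2 held 20.1 to 52.4 CPM, and cDC1 and mature DC had no UMI in RT1 and RT3.

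After radiotherapy, Maf was higher in macrophages of all RT libraries (0.34 ± 0.10), and the counting intervals ran from 0.14 to 0.48. In Crip1 macrophages it was at 401, 707, 781 and 545 CPM (0.74 ± 0.27), and in Lyve1 macrophages at 957, 1157, 1177 and 1150 CPM (0.28 ± 0.02). Cxcl9 and Mmp12 macrophages also lay above NT in every RT library. Cycling macrophages lay below it in every RT library (-0.15), and shallow macrophages lay on both sides. In monocytes as a whole the RT values were above NT only under CPM, by 0.21 ± 0.17, and under the other scalings RT3 lay below NT. The monocyte sub-clusters differed, since Thbs1 monocytes were at 595, 848, 855 and 740 CPM, with NT lowest, and Chil3 monocytes had NT highest (-0.93 ± 0.38). The share of macrophages with a Maf UMI after thinning was 54.1% in NT and 68.0%, 65.6% and 62.5% after radiotherapy. Unthinned, it was 66.7%, 74.3%, 80.9% and 66.3%, with RT3 level with NT.

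Nr1h3 was a sparse gene of macrophages. It was at 18.37, 12.9, 26.3 and 12.6 CPM in macrophages (48, 113, 346 and 57 UMIs) and at 5.59, 2.92, 4.89 and 2.93 CPM in monocytes. Macrophages were above monocytes in 4 of 4 libraries (log2 ratio 1.85 ± 0.27). Crip1 macrophages had the highest mean (33.4 CPM), and no UMI was found in cDC2 or mature DC of any library. In macrophages RT2 was above NT and RT1 and RT3 below it, so radiotherapy gave no common direction, and without RT2 the ratio was -0.49.

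Of the 13 populations, cDC1 and mature DC had the highest mean levels of Irf8 over the 4 libraries. It was at 1265, 968, 1422 and 980 CPM in cDC1 (98, 55, 274 and 59 UMIs). All 4 values lay far above macrophages (124, 81.7, 160 and 118 CPM) and cDC2 (91.8, 93.3, 337 and 201 CPM). The log2 ratio of cDC1 was 3.27 ± 0.22 over macrophages and 2.87 ± 0.82 over cDC2, in 4 of 4 libraries. Both directions turned (-0.94 and -0.54) when cells were named one by one by marker score, which called 2175 cells cDC1, only 88 of them in the cDC1 cluster. Mature DC came next with 453, 884, 1549 and 677 CPM, and their range overlapped those of cDC1 and of interferon monocytes, which were above them in NT (535 CPM). The mean of cDC2 (181 CPM) was level with those of Crip1 (183 CPM) and Cxcl9 macrophages (175 CPM). Lymphocytes also held Irf8, at 343, 484, 582 and 485 CPM.

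Radiotherapy gave Irf8 no common direction in cDC1, where RT2 was above NT and RT1 and RT3 below (ratio -0.38 without RT2). In mature DC all RT libraries were above NT (1.103 ± 0.61), on 22 UMIs in NT. In interferon monocytes they were below it, with 535, 173, 350 and 144 CPM (-1.37 ± 0.67). In monocytes as a whole it stood at 189 CPM in NT and 91.2, 196 and 78.6 CPM, so RT2 was level with NT while RT1 and RT3 were lower (log2 ratios -1.04 and -1.25). Without RT2, the ratio in monocytes was -1.15, and in macrophages -0.33.

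Batf3 was at the edge of detection. In macrophages it was at 14.9 CPM in NT (39 UMIs) and 2.85, 3.42 and 2.43 CPM (25, 45 and 11 UMIs), with NT highest and a log2 ratio of -2.04 ± 0.18. This value stands outside the counts below, because the mean over libraries was under 10 CPM. Some markers of cDC1 moved with it in macrophages, with Cadm1 at 86.1, 30.9, 26.4 and 22.4 CPM and Xcr1 at 2.30, 0.11, 0.23 and 0.22 CPM. The 9 cDC1 markers together summed to 549.9, 529, 567 and 412 CPM, with Naaa the most abundant, Snx22 and Itgae at 0 in NT and RT3, Snx22 also in RT1, and Gcsam at 0 in NT and RT1. The part of cDC1 in the Batf3 value was not tested. In mature DC it was at 61.8, 28.5, 71.5 and 35.7 CPM, on 1 to 6 UMIs. In cDC1 it had 4, 0, 12 and 0 UMIs, and a count of 0 in RT1 and RT3 allows up to 52.8 and 49.8 CPM, so no difference was detectable at this depth.

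The positions of the 9 genes can be set against all genes. In monocytes 7 of the 9 reached a mean of 10 CPM over the libraries. Of these, 4 lay below NT in every RT library (Spi1, Cebpb, Klf4 and Nr4a1), where 24.1% of 6825 genes did, and 2 lay above (Maf and Fli1), where 42.6% did. None of the 7 was 2-fold higher in every RT library (4.38% of all genes) or 2-fold lower (0.791%). The median ratio of all genes was 0.11 in monocytes, so that an average gene lay slightly above NT, and 0.05 and 0.02 under the other scalings.

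In macrophages 8 of the 9 were tested. Spi1 and Nr4a1 were lower in every RT library (32.3% of 7017 genes), and Maf and Klf4 were higher (34.1%), shares near the background. None was 2-fold higher (2.05% of genes) or 2-fold lower (1.78%), and the median of all genes was 0.01. In Chil3 monocytes 5 of the 7 tested lay below NT (26.6% of genes). In Lyve1 macrophages Klf4, Maf, Fli1 and Nr1h3 were higher in every RT library (35.1% of genes) and Spi1 was lower (32.7%). Among the 13 populations, 53.2% of 7917 genes lay above NT in every RT library of some population and below it in every RT library of another, counting only values with a mean of at least 10 CPM and over 3 UMIs in every library, and 5 of the 8 members tested in this way did.

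**Figure D4:**
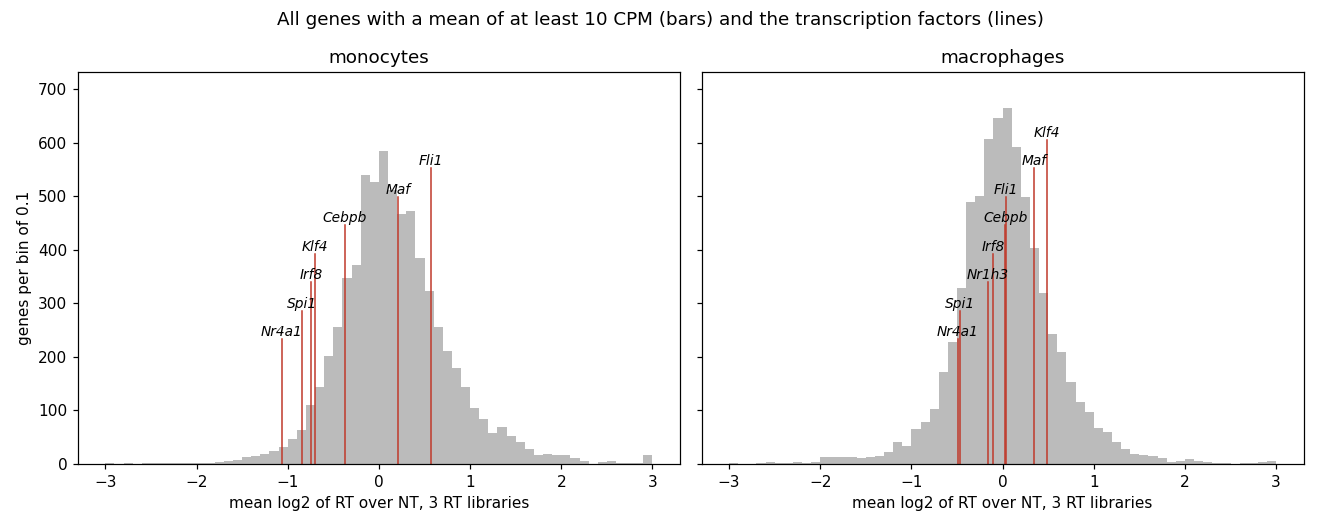
Number of genes (vertical axis) by mean log2 ratio of RT over NT (horizontal axis, values beyond 3 placed in the outermost bins) in monocytes and macrophages, with lines at the tested transcription factors. In monocytes Nr4a1 (-1.07), Spi1 (-0.85), Irf8 (-0.74, with RT2 level with NT) and Klf4 (-0.70) lay left of the bulk of genes. In macrophages all lines lay within it.

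Relatives of the 9 genes were read from 9 lists with 79 factors. In monocytes 63 were tested, of which 35 lay below NT in every RT library, 11 above and 17 on both sides, where 24.1% of all genes lay below and 42.6% above. Their median ratio was -0.31, against 0.11 for all genes. In macrophages 21 of 63 lay below, which is near the 32.3% of all genes, 13 above (34.1% of all genes) and 29 on both sides (median -0.18). The other NR4A receptors went with Nr4a1 in monocytes. There Nr4a2 was at 328 CPM in NT and 93.0, 143 and 148 CPM (-1.38 ± 0.37) and Nr4a3 at 229, 74.4, 66.7 and 119 CPM (-1.44 ± 0.44). In macrophages Nr4a2 was lower in every RT library, whereas Nr4a3 lay on both sides of NT (49.8, 15.3, 20.3 and 62.0 CPM).

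The list of BATF factors and their AP-1 partners, which are early-response genes, lay mostly below NT. In monocytes 7 of the 8 tested lay below NT in every RT library (24.1% of all genes) and none above (median -0.64). The 7 were all AP-1 genes, and Batf2 lay on both sides. Among the AP-1 genes were Junb at 4072, 1978, 2771 and 1857 CPM and Fosb at 1155, 568, 899 and 513 CPM. In macrophages 5 of 8 lay below (4 under the other scalings), against 32.3% of all genes, with a median of -0.31. Early-response genes are also known to be induced while tissue is dissociated into cells, and the part of this in the Nr4a1 and Klf4 values was not tested.

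Further members of the families were mixed. In the KLF list, Klf2 in monocytes was at 5603, 2630, 3761 and 1704 CPM (-1.13 ± 0.57), and 3 of 6 lay below NT (24.1% of all genes), none above. In the C/EBP list 3 of 4 lay below in monocytes, with Cebpa at 120, 36.5, 72.3 and 52.3 CPM. Among the small MAF and related factors 4 of 6 lay below, among them Mafg at 124, 45.2, 65.0 and 79.0 CPM. In the IRF list 4 of 6 lay above NT in monocytes (3 under the other scalings), where 42.6% of all genes did, among them Irf3 with 1 UMI in NT, and Irf7 at 55.9, 74.1, 116 and 57.7 CPM. In macrophages, the circadian receptor Nr1d1 was the only relative past 2-fold, at 33.7, 86.0, 86.6 and 110 CPM.

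Textbook targets of the factors were read from 7 lists, whose genes could take part in building the clusters. Of 9 PU.1 targets in macrophages, 8 lay above NT in every RT library, where 34.1% of all genes did, and 1 below (median 0.50, against 0.01 for all genes), among them Fcgr3, an Fc receptor for IgG, at 548, 1471, 1425 and 1143 CPM, while Spi1 itself was lower. Of 6 LXRα targets in macrophages 5 lay above NT, against the same share of all genes (median 0.92), with the cholesterol transporter Abca1 at 109, 314, 210 and 330 CPM and Apoe at 1241, 2149, 3076 and 2720 CPM, while Nr1h3 had no common direction. In monocytes Apoe had the opposite position, at 263 CPM in NT and 114, 129 and 120 CPM.

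Other target lists held genes on both sides. Of 6 c-MAF targets in macrophages 3 lay above NT in every RT library, against 34.1% of all genes, and 1 below. The chemokine Ccl8 was at 1613, 6258, 4593 and 5156 CPM (1.71 ± 0.23) and the complement gene C1qb at 1803, 3742, 4841 and 3465 CPM, whereas the cytokine Il10 was lower, at 108, 44.4, 73.9 and 65.7 CPM (-0.84 ± 0.38). Among the C/EBPβ targets the cytokine Il1b was at 13312 CPM in NT monocytes and 4121, 4576 and 3785 CPM after radiotherapy (-1.68 ± 0.14), and it was lower in macrophages too (-1.57 ± 0.37). Lysozyme (Lyz2) lay above NT in macrophages of every RT library (0.59 ± 0.15) and on both sides in monocytes, at 9311, 12239, 8516 and 11867 CPM. The IRF8 target Ciita, which switches on MHC class II, was at 26.8, 2.62, 11.3 and 5.98 CPM in macrophages. Of the other IRF8 targets tested there, Cybb also lay below NT in every RT library (32.3% of all genes). Ctss and Il18 lay above it (34.1% of all genes), and Tap1 lay on both sides. Ier3, listed under Nur77, was at 356, 1687, 2314 and 933 CPM in monocytes (2.11 ± 0.66), against the direction of Nr4a1.

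Profiles over populations and libraries placed each factor among other genes. Over 41 sums of at least 50 cells and 4909 genes, Pearson's r is given as a description, since points share libraries. Maf was most like C5ar1 (0.92), C3ar1 (0.90) and Ccl7 (0.90), and Nr4a1 was most like Il1b (0.84). Cebpb was nearest to Thbs1 (0.85), a gene that named a monocyte group, and Nr1h3 to Cd72 (0.84). Irf8 was nearest to Gbp5 (0.80), Cd40 and Stat2, and Spi1 to Mapkapk2 (0.76) and Coro1a (0.76). Klf4, with 0.65 for Pnrc1, Fli1, with 0.75 for Oip5os1, and Batf3, with 0.66 for H2-DMa, had weaker neighbours. Among the 9 genes themselves, Spi1 and Batf3 (0.62) and Maf and Nr1h3 (0.60) were the most alike, and Irf8 and Fli1 (-0.64) the least.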

How the data were processed

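The authors made SeekOne MM 3′ libraries, sequenced them on a NovaSeq instrument and deposited UMI counts as whole numbers per gene and called barcode, without normalization. The paper names SeekOne Tools, while the submitters' processing notes list Cell Ranger, STAR 2.5.1b, Subread 1.6.4, featureCounts and the builds GRCm39 and mm39, with no role given. How reads shared by near-identical genes were split is not given in the sources used here.

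A barcode was kept with at least 200 genes and a mitochondrial share of at most 20%, which left 55058 of 55805, and doublets were not removed. Counts were joined on symbols, log-normalized, reduced to 30 components of 2000 variable genes, integrated over libraries with the Harmony algorithm (rewritten here) and clustered with Leiden at resolution 0.8 (scanpy 1.11.5, leidenalg 0.10.2). The 9 genes and the 79 factors of the wider lists did not build the clusters, whereas the target genes could. Clusters were named from marker lists, and dendritic cells were clustered again. Sub-cluster names, the rule on at least 5 raised markers, the added clustering of dendritic cells and 4 alternatives (leaving out cells with a non-classical monocyte marker, cells under 1500 UMIs, the shallow and cycling macrophages, or cells with a Rhox5 UMI) were settled after seeing the data. The members and lists were chosen with earlier results of these data known.

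UMIs were summed per population and library and given as CPM, with exact Poisson 95% intervals. A floor is 3 counts. Ratios are log2(CPM + 1) of RT over NT, with exact conditional intervals. All intervals cover counting error only, and RT libraries are single tumors. Genes were called by size, with a mean of at least 10 CPM and either a position on 1 side of NT or a 2-fold difference in every RT library. All 9 members were named, with up to 3 genes of each list by size of ratio and 3 genes of the highest Pearson correlation. Alternatives covered scaling (TMM, median of ratios), clustering, integration, cell filters, doublet scores, cell naming, low-value filters, the pseudocount, sub-cluster mix and each RT library left out.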

Additional observations from a re-analysis of the deposited data

Results flagged for a closer look

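Only populations with a mean of at least 10 CPM and over 3 UMIs of the gene in every library were counted. There, 5 of the 8 members tested had all RT libraries above NT in some and below it in others. Of all genes tested in this way 53.2% did, a share near that of the members. The populations named have the highest and the lowest mean log2 ratio of RT over NT among those counted (ratios further from 0 in populations with fewer UMIs were left out), and the difference between them was not tested. Klf4 had a ratio of 0.63 ± 0.12 (SD, n = 3 RT libraries) in Lyve1 macrophages and -0.75 ± 0.04 in Chil3 monocytes. The directions divided monocytes, where all sub-clusters lay below NT, from 4 macrophage sub-clusters. Mmp12 macrophages lay below NT too, as did the Ear2 Mgl2 group, cDC2 and, under CPM only, mature DC. Cycling macrophages lay on both sides. Maf had 0.74 ± 0.27 in Crip1 macrophages and -0.93 ± 0.38 in Chil3 monocytes. Cebpb had 1.34 ± 0.47 in cDC2 and -0.60 ± 0.17 in Chil3 monocytes. Irf8 had 1.103 ± 0.61 in mature DC and -1.37 ± 0.67 in interferon monocytes. Nr1h3 had 0.61 ± 0.67 in Lyve1 macrophages and -0.97 ± 0.36 in Crip1 macrophages, on as few as 5 and 8 UMIs in a library, and without RT2 the value in Lyve1 macrophages was 0.23.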

How the results depend on the processing

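NT had no replicate, so differences between tumors of the control group were unknown, and depth limited Batf3, Nr1h3 and all dendritic cell values. The ratios of Spi1 (-0.97 to -0.44 in monocytes, -0.55 to -0.41 in macrophages), Nr4a1 (-1.19 to -0.86 and -0.70 to -0.31), Klf4 (-0.79 to -0.60 and 0.37 to 0.64) and Maf in macrophages (0.21 to 0.40) kept their sign under every alternative run (17 in monocytes, 18 in macrophages). In monocytes Cebpb ran from -0.47 to -0.19 and Fli1 from 0.28 to 0.90, each with the same sign under all 17. The number of the 9 genes above NT in monocytes was 2, and 1 (Fli1, without Maf) under TMM, under median-of-ratios scaling, at resolution 1.2, with at most 10% mitochondrial UMIs, with cells named one by one, and without cells holding a non-classical monocyte marker or a Rhox5 UMI. The number below NT in macrophages was 2, and 1 (Spi1) under TMM and without integration, and leaving out single RT libraries gave 2 to 5. It was 5 without RT2, when Cebpb, Irf8 and Nr1h3 joined Spi1 and Nr4a1. Genes past 2-fold numbered 353 in monocytes and 269 in macrophages. They were 120 and 90 at 50 CPM or more, 1211 and 583 with no filter, 1032 and 829 at 1.5-fold, and 222 and 170 with a pseudocount of 5 CPM, as fewer or more genes passed by construction. The ratio of Irf8 in cDC1 was reversed when cells were named one by one by marker score, to -0.54 over cDC2 and -0.94 over macrophages, where 2175 cells were called cDC1, of which 88 were shared with the cluster. No paired analysis was possible because NT is 1 library and shares no second replicate number with RT.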
